A study of Homo sapiens with 24 samples.

Results

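Chemoresistant persister cells were compared with the chemoresistant cells that share their name, in KYSE450, an established human oesophageal squamous cell carcinoma line. The comparison took 12 of the 24 RNA sequencing libraries of the series: 6 labelled chemoresistant-DTP and 6 labelled chemoresistant, chosen by their phenotype label. The remaining libraries, 6 of parental cells and 6 labelled parental-DTP, served only to show where the chemoresistant line differed. DTP is the usual abbreviation of drug-tolerant persister. All groups carry the same genotype label, WT, and the same culture label, RPMI-1640 medium with fetal bovine serum, and all are labelled as untreated. The titles of the chemoresistant samples read KYSE450DDP and those of their persisters KYSE450DDP-DTP. The drug, its dose and the way either state was reached are not given in the labels. Nor do they say that the 6 libraries of a group are separate cultures, so the p-values below cover the spread among libraries, which may be technical. The chemoresistant cells are 1 derivative of 1 line.

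Persisters are tumour cells that outlive drug exposure by a reversible state rather than a mutation, and they are known for stress signalling and altered growth. Type I and type III interferons act through JAK kinases on a complex of transcription factors that binds the interferon-stimulated response element (ISRE) in promoters and switches on antiviral effectors, antigen presentation and more of the sensors. Tumour cells resistant to DNA-damaging drugs are known to carry such a signature in some models. Epidermal growth factor receptor ligands act through ERK on immediate early genes and on feedback inhibitors, and NRF2 switches on glutathione and thioredoxin genes.

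The 12 libraries held between 20166509 and 29128757 reads assigned to genes. Of the genes listed, 13079 had a mean of at least 1 FPKM (sequenced fragments scaled to gene length and library size) in either group and were tested with limma on log2(FPKM + 1), so every fold change below is on that scale, where the change of a low gene comes out too small. A gene passed at a Benjamini-Hochberg adjusted p of 0.05. The test was passed by 6026 genes (46.1%), of which 2590 were higher (19.8%) and 3436 lower (26.3%) in the persisters. The share of calls that were higher was 43.0%, against 49.9% with relative log expression factors as scaling and 53.2% among genes of at least 5 FPKM. Most of these changes were small: the median absolute change over all genes was 0.17, and 190 genes (1.45%) changed at least 2-fold, 49 upwards (0.375%) and 141 downwards (1.08%). The single libraries of the groups did not overlap for 3765 genes (28.8%). The first principal component, 53.2% of the variance, separated the groups, and the second, 20.8%, set persister library 2 apart from the other 11. That library deviated from its group by 0.303 (root mean square, log2), against 0.107 to 0.185 for the others. The defining squamous markers were present in both groups, with all 10 of 10 tested, TP63, KRT5 and SOX2 among them. Of these 2 were higher and 3 lower. Glandular epithelial markers were present too, with 4 of 10 tested. That list summed to 504 to 550 FPKM in chemoresistant and 465 to 586 FPKM in persister libraries. Of the endothelial and erythroid lists no member reached 1 FPKM, and 2 of 12 leukocyte and 4 of 10 fibroblast markers did.

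Many of the genes that fell furthest hold an ISRE, and the promoters of 6 of them are shown first because the largest change in these data ran through such genes. They come from RefSeq on GRCh38.p14. The 6 were the furthest falls, among protein coding genes without overlap, that had an ISRE core wholly upstream. The core is therefore present in them by choice. TRIM22, MX2, OAS2 and OASL fell further than IFIT1 but had no such core or no matched promoter. Each stretch lies wholly upstream of the start of the gene, is written 5′ to 3′ in the direction of the gene, and has 1 ISRE core in capitals, which is GAAA, any 2 bases and GAAA, or its reverse complement. The stretches of ISG15 and IFIT1 hold a further match, left in lower case or overlapping the capitals. The positions are chr1:27672309-27672378 on the minus strand for IFI6, and on the plus strand chr1:1013354-1013423 for ISG15, chr10:89327811-89327880 for IFIT3, chr12:112938301-112938370 for OAS3, chr11:313970-314039 for IFITM1 and chr10:89392477-89392546 for IFIT1.
IFI6: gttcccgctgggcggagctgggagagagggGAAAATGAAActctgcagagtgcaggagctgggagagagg
ISG15: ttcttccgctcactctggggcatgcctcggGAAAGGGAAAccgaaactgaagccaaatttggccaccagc
IFIT3: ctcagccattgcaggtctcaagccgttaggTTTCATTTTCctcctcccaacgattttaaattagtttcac
OAS3: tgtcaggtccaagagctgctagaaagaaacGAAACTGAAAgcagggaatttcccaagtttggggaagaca
IFITM1: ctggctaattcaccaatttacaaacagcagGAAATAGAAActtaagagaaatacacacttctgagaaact
IFIT1: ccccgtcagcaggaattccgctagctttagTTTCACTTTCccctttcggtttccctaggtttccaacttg
Searched on both strands from 250 bases before to 50 bases after the gene start, this core occurred in 40 of the 87 promoters matched to genes that fell at least 2-fold (46.0%). It occurred in 2.77% of the 8988 promoters matched to genes tested, in 3.65% of all 27305 promoters of the table, and in 1 of the 28 matched to genes that rose at least 2-fold. A match of letters describes the promoter and is not a binding site.

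The tested interferon-stimulated effector genes, whose proteins block viruses inside the cell, fell without exception in the persisters. Like the other lists, this one was written with earlier results of these data known. The count of its members therefore describes the list and does not test it. All 53 tested members of the list of 55 passed the test downwards, 49 of them at least 2-fold, with a median log2 fold change of -1.76 against -0.02 over all genes tested. Summed over the list, the level was 4290 to 4890 FPKM in the chemoresistant libraries and 919 to 1170 FPKM in the persister libraries, and no member had overlapping libraries. In bulk RNA, fewer cells that express these genes and less RNA per cell cannot be told apart. The ISRE core stood in 28 of their 40 matched promoters (70.0%). Leaving out persister library 2 left the list at 53 of 53 lower, with a median of -1.70.

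IFI6, a mitochondrial and endoplasmic reticulum protein, had the most negative log2 fold change of the named genes on the log2(FPKM + 1) scale, while in the fit to recovered reads TRIM22 (-4.65) and MX2 (-4.11) were below it (-3.57). It lay between 242 and 276 FPKM (median 269) in the chemoresistant libraries and between 19.0 and 31.3 (median 20.7) in the persisters, a log2 fold change of -3.50 (SE 0.10, adjusted p = 2.35e-11). ISG15, the ubiquitin-like modifier, ran from 504 to 631 FPKM (median 544) in the chemoresistant libraries. In the persisters it ran from 42.8 to 78.4 (median 47.2), a log2 fold change of -3.37 (SE 0.14, adjusted p = 6.77e-10). Its conjugating enzyme UBE2L6 and its protease USP18 fell with it, with log2 fold changes of -2.59 and -2.30. Every persister library lay far below every chemoresistant library for these genes.

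RNA-binding effectors were also far lower. IFIT3, which binds foreign RNA in complex with IFIT1, went from 39.2 to 50.7 FPKM (median 45.8) down to 4.89 to 6.32 (median 5.24), a log2 fold change of -2.86 (SE 0.07, adjusted p = 7.19e-12). OAS3, a synthase of the 2-5A messenger that activates RNase L, went from 47.4 to 55.8 FPKM (median 51.4) to 4.72 to 8.92 (median 6.63), a log2 fold change of -2.78. Its neighbours OAS2 and OAS1 fell by 2.80 and 2.57 on the log2 scale. IFITM1, which keeps viruses from fusing with membranes, went from 748 to 915 FPKM (median 776) to 106 to 147 (median 118), a log2 fold change of -2.71. Reads of IFITM1, IFITM2 and IFITM3, which are near-identical in part, may have been split between them. TRIM22, an antiviral ubiquitin ligase, kept the smallest part of its level, 4.11% of the chemoresistant mean, while SHISA5 kept the largest of the list, 55.1%. The median over the 53 genes was 20.5%.

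**Figure D1:**
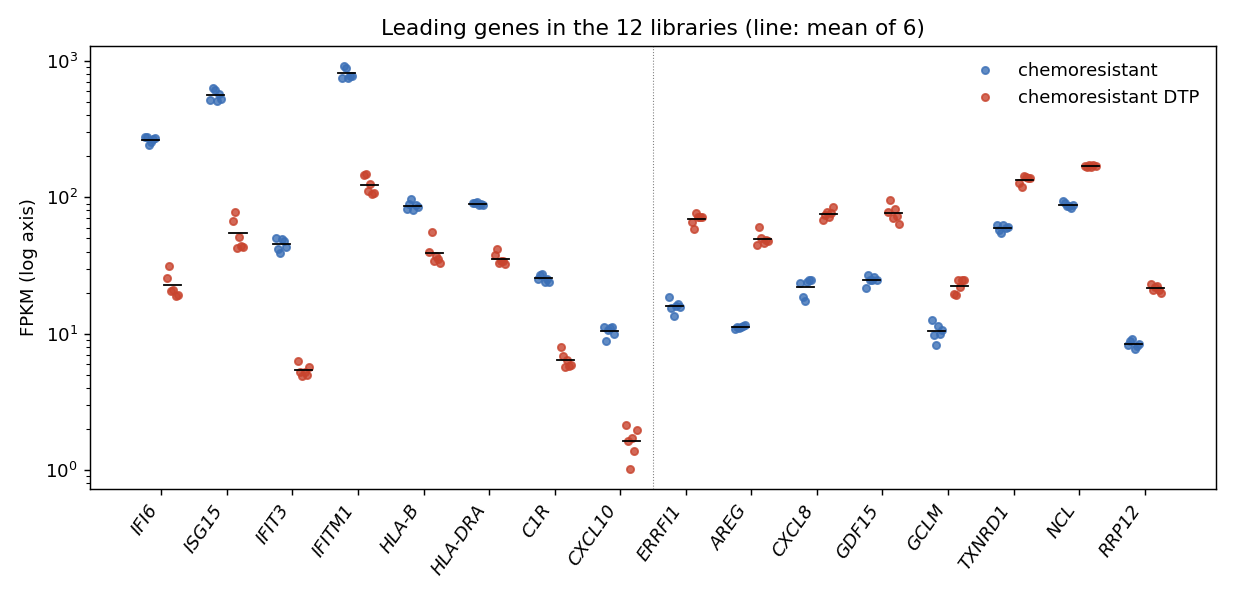
FPKM on a log axis for 16 named genes in each of the 6 chemoresistant (blue) and 6 chemoresistant DTP (red) libraries, with the mean as a black line. Left of the dotted line all 8 genes have their persister libraries below every chemoresistant library (IFI6 19.0 to 31.3 against 242 to 276 FPKM), and right of it all 8 have them above (ERRFI1 58.6 to 76.9 against 13.5 to 18.6 FPKM).

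The sensors and signalling proteins were divided. Of 28 tested members 18 were lower and 2 higher, with a median of -0.34. Among the members that fell were the RNA sensors DHX58 and IFIH1, by 2.51 and 1.71 on the log2 scale. The transcription factors IRF7 and STAT2 fell by 2.17 and 1.35. STAT2 ran from 26.9 to 31.4 FPKM (median 28.55) in the chemoresistant libraries and from 8.50 to 11.9 (median 11.02) in the persisters, with no overlap. IRF1 and IRF9 fell less, with log2 fold changes of -0.66 and -0.38, and so did the DNA-signalling adaptor STING1, with -0.65. The receptor chain IFNAR1 did not pass the test (4.38 to 5.43 against 4.48 to 5.48 FPKM, adjusted p = 0.607), nor did IRF3 (log2 fold change 0.09, adjusted p = 0.272) or the kinase JAK1 (0.12, adjusted p = 0.214), although IRF3 was called higher after GC correction and JAK1 without persister library 2 (adjusted p = 0.00291). CGAS, the cytosolic DNA sensor, was one of the 2 that rose, from 3.49 to 6.08 FPKM (median 4.82) to 7.82 to 9.14 (median 8.41), a log2 fold change of 0.70 (SE 0.09, adjusted p = 2.41e-05). STAT2, CGAS, STING1, IRF1, IRF3, IRF9, IFNAR1 and JAK1 were singled out after their values were seen, as were HLA-B, HLA-C, HLA-E, B2M, CFD, CD55, TGFA, EGFR, MYC and MKI67 below.

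Of the 8 interferon genes listed only 2 reached 1 FPKM in either group. IFNL1, a type III interferon, lay at 0.711 to 1.76 FPKM (median 1.13) in the chemoresistant libraries and at 0 to 0.53 (median 0.211) in the persisters, a log2 fold change of -0.80 (SE 0.12, adjusted p = 9.33e-05). IFNE, the epithelial type I interferon, rose from 1.03 to 1.51 FPKM (median 1.22) to 1.76 to 2.89 (median 2.15), a log2 fold change of 0.53. Both are close to the lowest levels tested.

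Genes of MHC class I, which presents peptides to CD8 T cells, were lower in all parts of the pathway tested. All 17 tested members passed downwards, with a median of -0.74 and 6 at least 2-fold lower. The immunoproteasome subunit PSMB9, which cuts peptides for presentation, went from 13.7 to 17.0 FPKM (median 14.4) to 2.42 to 4.44 (median 3.26), a log2 fold change of -1.91 (SE 0.10, adjusted p = 7.78e-09). The peptide transporter TAP1 and the class I transactivator NLRC5 fell by 1.28 and 1.21. The heavy chains fell by unequal amounts, HLA-F by 1.29, HLA-B by 1.15, HLA-C by 1.06 and HLA-E by 0.74, and the light chain B2M by 0.91 on the log2 scale. HLA genes are near-identical and variable between people, so the authors' counting could have moved reads among them. The ISRE core stood in 9 of 14 matched promoters of this list (64.3%).

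MHC class II genes, which present peptides to CD4 T cells and are rare outside immune cells, were measured in these libraries and fell too. This list was added after the values were seen. All 11 tested members of 12 were lower, with a median of -1.01 and no overlap for any of them. HLA-DRA, the alpha chain of the DR molecule, went from 87.6 to 91.8 FPKM (median 90.0) to 32.5 to 41.5 (median 34.0), a log2 fold change of -1.32 (SE 0.06, adjusted p = 8.58e-10). CD74, the chaperone that guards the class II groove, went from 51.2 to 58.8 FPKM (median 52.8) to 18.1 to 21.1 (median 18.8), a log2 fold change of -1.46. The leukocyte markers, which could carry class II genes, summed to 3.01 to 5.62 FPKM in chemoresistant and 2.19 to 4.62 FPKM in persister libraries, and their part in the result was not tested. At a minimum of 5 FPKM instead of 1, only 4 members of this list were tested, all lower.

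The groups of genes differed in where this fall left them relative to parental cells. Of the interferon effectors, all 53 had a higher mean in chemoresistant than in parental cells, at a median ratio of 16.6, and 49 were still above the parental mean in the persisters, at a median ratio of 4.02. MHC class I genes kept the same order, with 16 of 17 above the parental mean in both states and median ratios of 3.22 and 1.88. MHC class II genes did not. Of the 11, 9 were above the parental mean in chemoresistant cells, at a median ratio of 1.35, and none in the persisters, at a median ratio of 0.463. Their geometric mean was 7.87 to 8.74 FPKM in chemoresistant, 3.34 to 3.85 in chemoresistant DTP, 6.81 to 7.09 in parental and 7.10 to 7.87 in parental-DTP libraries. These ratios set levels side by side, and no test was run on them.

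**Figure D2:**
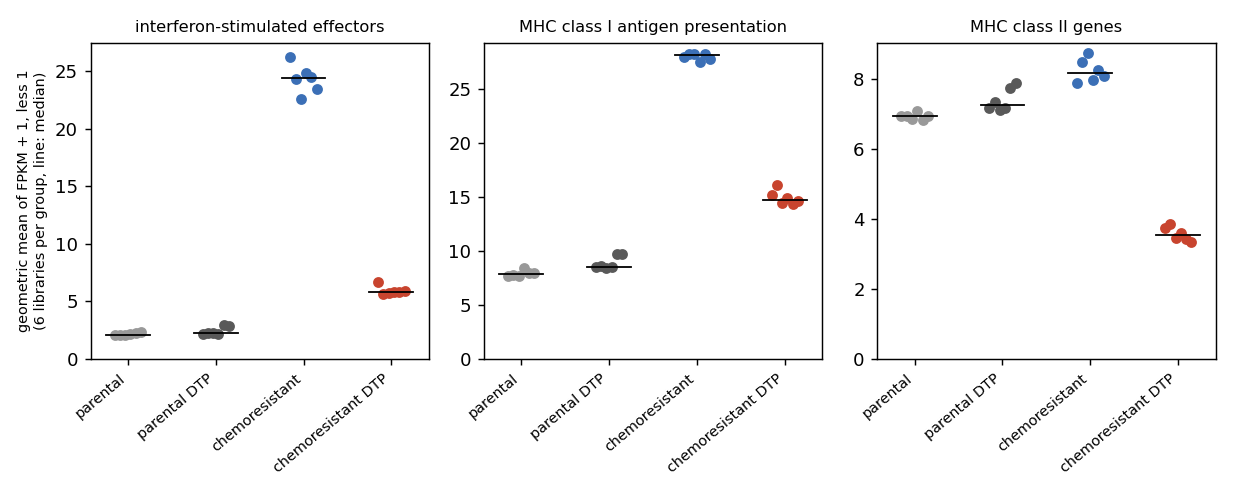
Geometric mean of FPKM + 1, less 1, over the members of 3 lists, for each of the 6 libraries of the 4 groups, with the group median as a line and each axis starting at 0. Interferon effectors and MHC class I genes in chemoresistant DTP libraries (5.66 to 6.64 and 14.3 to 16.1) lie between the chemoresistant and the parental libraries, while MHC class II genes (3.34 to 3.85) lie below both.

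Complement genes made by epithelial cells fell as well, in a list also added after the values were seen: 7 of 11 tested were lower and 2 higher, with a median of -0.94. The C1 proteases C1R and C1S, which start the classical pathway, fell by 1.83 and 1.52, and factor B (CFB), C3 and factor D (CFD), which form the alternative pathway, by 1.58, 1.16 and 1.15 on the log2 scale. C1R went from 23.9 to 27.5 FPKM (median 25.2) to 5.75 to 7.93 (median 6.15). CD55, the surface protein that dismantles complement convertases, went the other way, from 5.89 to 6.90 FPKM (median 6.40) to 14.1 to 15.9 (median 14.98), a log2 fold change of 1.10 (SE 0.04, adjusted p = 4.20e-10). For both directions the groups were well apart.

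Chemokines split. The T cell attractants CCL5 and CXCL10 fell, CCL5 from 39.8 to 50.9 FPKM (median 44.3) to 6.44 to 8.37 (median 7.72) and CXCL10 from 8.86 to 11.3 (median 10.8) to 1.03 to 2.13 (median 1.68), with log2 fold changes of -2.41 and -2.13. CXCL8, which draws neutrophils, rose from 17.4 to 24.8 FPKM (median 23.6) to 67.8 to 84.6 (median 75.7), a log2 fold change of 1.74 (SE 0.09, adjusted p = 5.14e-09). Of 9 chemokines tested, 4 were lower and 3 higher, with a median of -0.05. Among epithelial cytokines IL1A and LIF rose by 0.81 and 1.21, while the death ligand TNFSF10 and the IL-1 antagonist IL1RN fell by 1.74 and 1.05 on the log2 scale. NF-kB subunits and feedback genes had 8 of 17 lower and 3 higher, with TNFAIP2 at -1.11 and the mitochondrial superoxide dismutase SOD2 at -0.69.

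Among protein coding genes of at least 5 FPKM whose libraries did not overlap, the largest falls outside the interferon and antigen presentation lists were CCL5, the ADP-ribosyltransferase PARP10 (-2.22), CXCL10, the galectin LGALS9 (-1.92), the dNTP hydrolase SAMHD1 (-1.88), C1R, ODF3B (-1.75), TNFSF10, the retroviral restriction factor TRIM5 (-1.55) and the thymidine phosphorylase TYMP (-1.54). Of the 41 matched promoters of 2-fold falls outside those lists, 9 held the ISRE core (22.0%): AIM2, CFB, CXCL10, LGALS9, SECTM1, SHFL, TNFSF10, TRIM5 and TRIM69. The pyroptosis protease CASP1 went from 8.36 to 9.80 FPKM (median 8.83) to 2.94 to 3.43 (median 3.09), a log2 fold change of -1.27. It belongs to a list of caspases and gasdermins in which 8 of 13 tested were lower and 2 higher.

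The 2-fold genes lay together on the chromosomes in places. Placing 178 of the 190 genes by GENCODE on GRCh38 and joining neighbours up to 200000 bases apart gave 10 clusters of at least 3, which held 35 genes. In 9 of them every member fell. They included the class II and class I genes HLA-DRA, HLA-DRB5, HLA-DRB1, HLA-DQA1, PSMB9 and TAP1 (chr6:32439842-32859585), the IFIT genes (chr10:89283694-89421001), the OAS genes (chr12:112906777-113011723), the IFITM genes (chr11:307631-327537), PARP9, DTX3L and PARP14 (chr3:122527924-122730840) and TYMP with ODF3B, KLHDC7B and MAPK8IP2 (chr22:50525752-50613981). The remaining cluster, SPRR3, SPRR2D and SPRR2F in the epidermal differentiation region (chr1:153001747-153113515), was the rising one. Neighbours in such families share sequence, so they are not independent measurements.

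**Figure D3:**
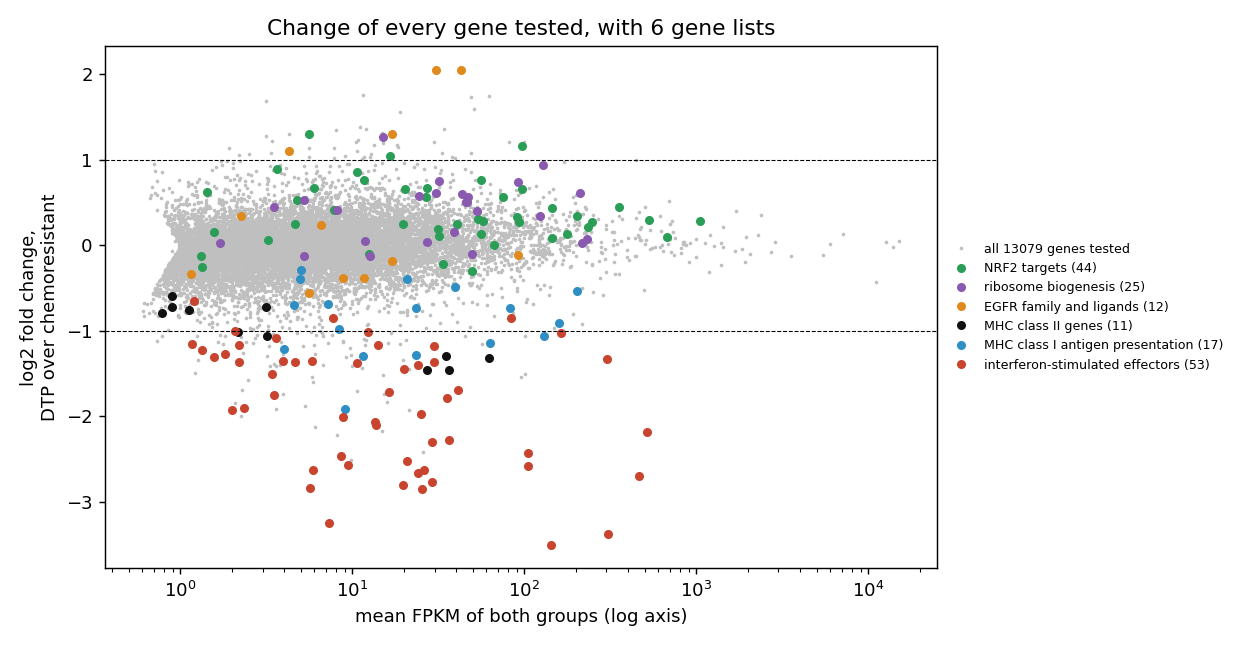
Log2 fold change of chemoresistant DTP over chemoresistant libraries against the mean FPKM of both groups on a log axis, for the 13079 genes tested (grey) and 6 lists in colour, with dashed lines at a 2-fold change. The interferon effectors (red) hold most of the lower edge, down to -3.50 for IFI6, while the upper edge is led by ERRFI1 and AREG at 2.05.

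The rises were smaller and spread over growth factor, stress and biosynthetic genes. ERRFI1, a feedback inhibitor that binds the EGF receptor, went from 13.5 to 18.6 FPKM (median 15.9) to 58.6 to 76.9 (median 71.3), a log2 fold change of 2.05 (SE 0.08, adjusted p = 1.62e-10). The receptor's ligand AREG rose equally, from 10.9 to 11.5 FPKM (median 11.2) to 44.7 to 61.0 (median 48.2), by 2.05 (SE 0.06, adjusted p = 3.47e-11). The ligands HBEGF and EREG, rose by 1.30 and 1.11, and TGFA by 0.34 on the log2 scale. EGFR itself did not pass the test, at 88.1 to 101 FPKM (median 93.1) against 46.7 to 105 (median 95.7), and its sign turned positive without persister library 2 (0.05, adjusted p = 0.291). Over the 12 tested members of the EGFR family list 6 were higher and 4 lower.

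Most ERK feedback and immediate early genes tested passed upwards, and the part of the EGF receptor's ligands in this was not tested. Of 15 ERK feedback genes 10 were higher and none lower (median 0.31), DUSP5, which holds ERK in the nucleus, furthest at 1.07 and DUSP6 at 0.40. After GC correction 2 members of the list were called lower. Of 21 immediate early and AP-1 genes 17 were higher and none lower (median 0.36). Its members FOSL1, ATF3 and JUN rose by 1.14, 1.01 and 0.91, FOSL1 from 4.09 to 4.94 FPKM (median 4.58) to 9.61 to 12.1 (median 11.2). Other growth and invasion genes among the largest rises were the parathyroid hormone-like factor PTHLH (1.24), the collagenase MMP13 (1.31), the metalloprotease ADAMTS1 (1.22) and the TWEAK receptor TNFRSF12A (1.21). GPAT3, an acyltransferase of triglyceride synthesis, went from 4.31 to 5.01 FPKM (median 4.70) to 16.7 to 20.1 (median 18.2), a log2 fold change of 1.76.

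The hormones secreted by stressed cells, GDF15 and FGF21, were among the largest rises. GDF15 lay at 21.7 to 26.8 FPKM (median 24.9) in the chemoresistant libraries and at 63.9 to 95.6 (median 75.5) in the persisters, a log2 fold change of 1.59 (SE 0.08, adjusted p = 6.63e-09). FGF21 went from 0.69 to 1.16 FPKM (median 0.964) to 4.12 to 7.75 (median 5.07), by 1.68 on the tested scale and by 2.45 in the fit to recovered reads, which uses no pseudocount of 1. GFRAL, the GDF15 receptor, was listed at 0 in 3 of 6 chemoresistant and 4 of 6 persister libraries and reached at most 0.0665 FPKM, so no fold is given. Of 40 tested targets of the integrated stress response, the ATF4 programme that answers amino acid shortage and misfolding, 21 were higher and 1 lower, with a median of 0.17. The cystathionine lyase CTH and the phosphatase adaptor PPP1R15A rose by 1.03 and 1.02. Cytosolic aminoacyl-tRNA synthetases had 14 of 20 higher and 2 lower (median 0.32), SARS1 leading at 0.65.

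Endoplasmic reticulum chaperones had 10 of 24 higher and 1 lower, a count that rose to 17 higher after GC correction. HSPA5, the lumenal HSP70, went from 110 to 117 FPKM (median 116) to 208 to 246 (median 225), a log2 fold change of 0.97 (SE 0.04, adjusted p = 1.12e-09). Its promoter and that of FGF21 are shown because each holds the element known for its programme, the endoplasmic reticulum stress element, CCAAT and CCACG with any 9 bases between them, at chr9:125241361-125241439 on the minus strand and the ATF4 element TGATGNAA, here as its reverse complement, at chr19:48755440-48755507 on the plus strand, both upstream of the gene start.
HSPA5: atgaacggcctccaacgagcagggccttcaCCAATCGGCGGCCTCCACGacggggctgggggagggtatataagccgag
FGF21: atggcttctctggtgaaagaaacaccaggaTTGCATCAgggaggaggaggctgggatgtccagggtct
The first element stood in 6 of 23 chaperone promoters (26.1%) and in 0.145% of promoters of genes tested. The second stood in 7 of 33 promoters of stress response targets (21.2%) and in 1.66% of promoters of genes tested. Not every element searched set its list apart so clearly. The NRF2 core TGACNNNGC stood in 8 of 32 promoters of NRF2 targets and 15.4% of those of genes tested. It also stood in 10 of 33 promoters of stress response targets. The AP-1 site TGANTCA stood in 1 of 18 promoters of the immediate early and AP-1 list and 4.34% of those of genes tested. The metal response core TGCACNC stood in 3 of 5 promoters of the metallothionein list and 11.1% of those of genes tested.

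NRF2 targets, the glutathione, thioredoxin and quinone genes of the oxidant response, had 30 of 44 higher and 3 lower, with a median of 0.29. TXNRD1, the thioredoxin reductase, went from 54.9 to 63.0 FPKM (median 60.03) to 118 to 143 (median 139), a log2 fold change of 1.16 (SE 0.05, adjusted p = 2.03e-09). GCLC and GCLM, the catalytic and modifier subunits of glutamate-cysteine ligase, which makes the first step towards glutathione, rose by 0.76 and 1.04, GCLC from 36.8 to 45.4 FPKM (median 41.5) to 65.9 to 75.0 (median 71.3) and GCLM from 8.25 to 12.6 (median 10.3) to 19.3 to 24.9 (median 23.4). NFE2L2, which encodes NRF2, rose by 0.24 (adjusted p = 0.0123) with overlapping libraries. KEAP1, its inhibitor, was at 46.9 to 63.5 against 53.6 to 65.9 FPKM and did not pass (adjusted p = 0.199), though it was called higher after GC correction. The wider list of glutathione synthesis and use had 11 of 31 higher and 8 lower. FDX1, the ferredoxin required for cuproptosis, and the copper importer SLC31A1 did not pass, with log2 fold changes of 0.04 and 0.07 (adjusted p = 0.615 and 0.385). The list of metallothioneins, which bind zinc and copper, and of zinc response genes had 4 of 6 higher and none lower. The metallothioneins rose, MT1F by 1.36, MT1X by 1.15 and MT2A by 0.99, and near-identical copies may share their reads.

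Genes of ribosome production rose, and most ribosomal protein genes did not pass the test. Of 25 ribosome biogenesis genes 16 were higher and none lower, with a median of 0.45, and without persister library 2 the counts were 17 and 2. RRP12, an export factor of ribosomal subunits, went from 7.70 to 9.10 FPKM (median 8.36) to 20.02 to 23.2 (median 21.6), a log2 fold change of 1.27 (SE 0.05, adjusted p = 2.39e-10). Nucleolin (NCL), which organises the nucleolus, went from 83.1 to 93.7 FPKM (median 87.3) to 166 to 172 (median 170), by 0.94. The E-box CACGTG, the letters read by MYC, stood in 7 of 19 promoters of this list (36.8%) and in 10.4% of promoters of genes tested. It also stood in 5 of 18 promoters of the immediate early and AP-1 list (27.8%). MYC rose by 0.35, from 105 to 116 FPKM (median 106) to 131 to 143 (median 137). Its part in the change of ribosome biogenesis genes was not tested. Small nucleolar RNAs, which guide ribosomal RNA modification, had 14 of 50 tested higher and none lower, with a median of 0.34. Cytosolic ribosomal proteins had 9 of 80 higher and 2 lower (median 0.02), but 13 higher and 25 lower without persister library 2 (median -0.06). Mitochondrial ribosomal proteins had 30 of 75 higher and 5 lower (median 0.16), and 11 lower without that library.

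Cytosolic folding and proteasome genes were higher in part. The list of chaperonins, the barrels that fold actin, tubulin and mitochondrial proteins, had 12 of 15 higher and none lower (median 0.37). It also holds genes of other chaperones, among them the prefoldin subunit PFDN2 and the mitochondrial HSP70 HSPA9, both at 0.59. Cytosolic heat shock proteins had 20 of 26 higher and 1 lower (median 0.29), with CHORDC1 at 0.83, HSP90AA1 at 0.63 and STIP1 at 0.61. Proteasome subunits had 19 of 35 higher and 5 lower. Over all genes tested 19.8% were higher and 26.3% lower. Near those shares, lysosomal hydrolases and V-ATPase subunits had 6 of 40 higher and 11 lower. Autophagy genes had 9 of 27 higher and 5 lower. The standard regulatory subunits PSMD12 and PSMD7 rose by 0.81 and 0.68, whereas the immunoproteasome subunits PSMB9 and PSMB10, which replace standard ones under interferon, fell by 1.91 and 0.68 on the log2 scale.

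Squamous differentiation genes moved both ways. Of 21 tested cornified envelope genes 12 were higher and 2 lower (median 0.30). SPRR2D, a cross-linked envelope protein, went from 24.7 to 32.1 FPKM (median 27.0) to 68.2 to 145 (median 89.9), a log2 fold change of 1.75 (SE 0.14, adjusted p = 4.82e-07), and SPRR3 and SPRR2F rose by 1.03 and 1.56. Reads of SPRR2 copies may have been shared. KRT16, a keratin of stressed and wounded epithelium, rose by 1.36, and KRT15, a keratin of basal cells, fell by 0.93, from 274 to 299 FPKM (median 277) to 136 to 162 (median 147). Squamous lineage factors had 8 of 17 lower and 3 higher, with SOX2 at -0.66 and TP63 at -0.47. SOX2 lay at 111 to 135 FPKM (median 125) in the chemoresistant libraries and at 70.7 to 84.6 (median 79.9) in the persisters. Among S100 genes 6 of 14 were higher, S100P leading at 1.08.

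**Figure D4:**
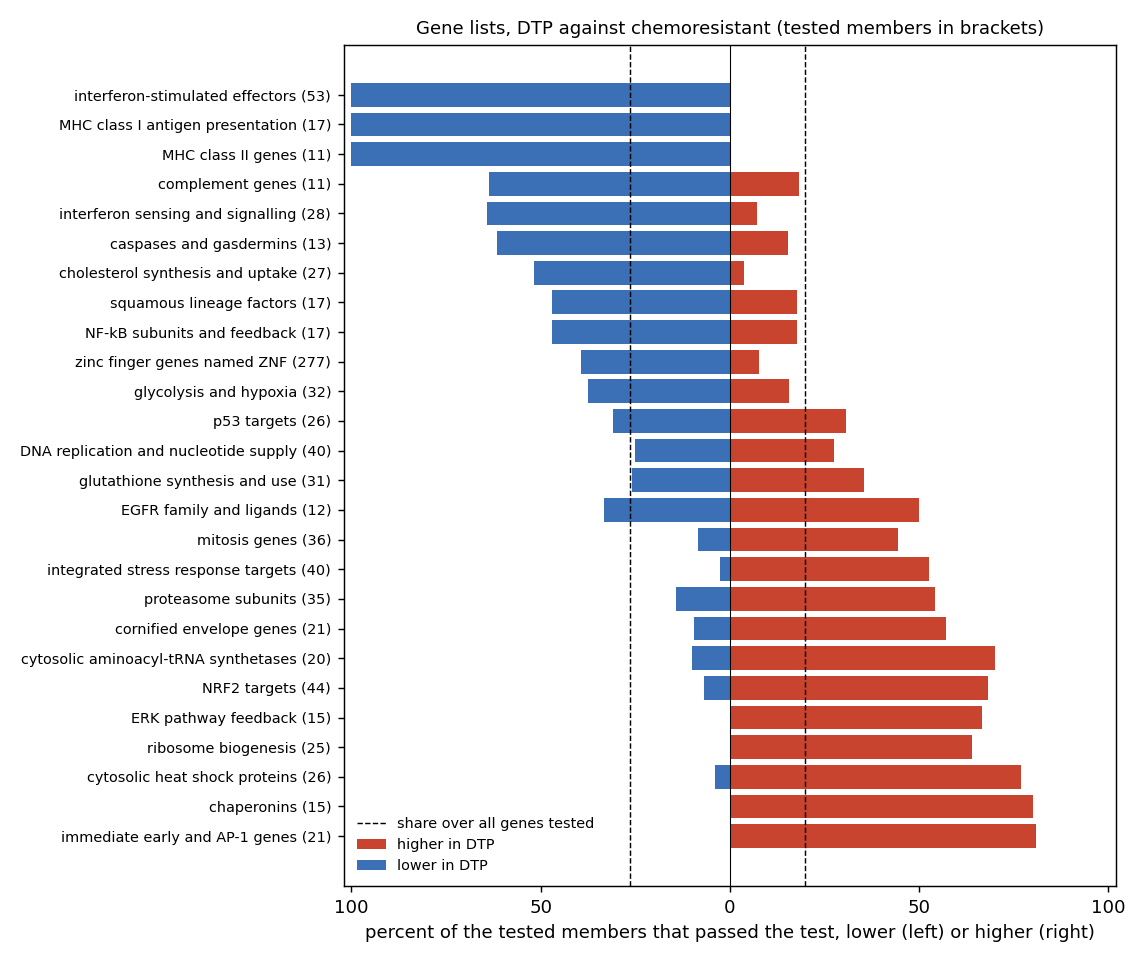
Share of the tested members of 26 lists that passed the test lower (blue, left) or higher (red, right) in chemoresistant DTP libraries, in percent, with the number tested in brackets. The dashed lines give the same shares over all genes tested, 26.3% lower and 19.8% higher; the 3 lists at the top have every tested member lower.

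Lipid, clock and hypoxia lists differed from one another, beside 26.3% lower and 19.8% higher over all genes tested. Cholesterol synthesis and uptake had 14 of 27 lower and 1 higher (median -0.19), with the regulator SREBF2 at -0.69. The fatty acid regulator SREBF1 went from 57.3 to 70.1 FPKM (median 64.0) to 30.9 to 33.5 (median 32.9), a log2 fold change of -0.96 (SE 0.05, adjusted p = 7.59e-09), and its target SCD, the stearoyl desaturase, fell by 1.07. The fatty acid synthesis list as a whole had 7 of 20 lower and 2 higher (median -0.01), with FADS3 at 0.67. Triglyceride and lipid droplet genes had 5 of 14 higher and 4 lower, and fatty acid oxidation genes 4 of 15 higher and 2 lower. Of 14 clock genes 5 were lower and 1 higher, and the output factors DBP and NR1D1 fell by 0.99 and 0.83, DBP from 3.39 to 3.98 FPKM (median 3.84) to 1.36 to 1.45 (median 1.42). Glycolysis and hypoxia genes had 12 of 32 lower and 5 higher, the carbonic anhydrase CA9 furthest at -1.27. Without persister library 2, 10 of that list were higher. ID3, a helix-loop-helix inhibitor induced by BMP signals, fell by 1.14.

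Proliferation genes moved little, and the counts here stand beside 19.8% higher and 26.3% lower over all genes tested. Of 36 mitosis genes 16 were higher and 3 lower (median 0.16), CCNA2, the S and G2 cyclin, among them at 0.48. Replication genes were divided, with 11 of 40 higher and 10 lower. MKI67, the proliferation antigen, was at 18.0 to 26.0 FPKM (median 22.2) against 10.4 to 27.4 (median 23.9) and did not pass (adjusted p = 0.827), and its sign turned without persister library 2 (0.14, adjusted p = 0.205). CDKN1A, the p21 inhibitor of cyclin kinases, rose from 4.02 to 5.70 FPKM (median 4.74) to 8.81 to 12.2 (median 11.1), a log2 fold change of 1.02, while the p53 list as a whole had 8 of 26 higher and 8 lower. Excision and crosslink repair genes had 7 of 40 higher and 7 lower, which became 18 and 10 without persister library 2. Drug efflux and platinum transport genes had 3 of 13 higher and 4 lower, with the pumps ABCC2 and ABCC3 at 0.77 and 0.67 and MVP, the vault protein, at -0.78. Zinc finger genes named ZNF had 109 of 277 lower and 21 higher (median -0.09), and long intergenic RNAs 147 of 358 lower and 27 higher (median -0.17).

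The change of a gene followed its GC content, the share of G and C in its exons. With genes in 5 groups of equal size from the lowest to the highest GC, the median log2 fold change went 0.08, 0.03, -0.03, -0.08 and -0.11, and within groups the deviations of single libraries correlated with GC at Spearman values from -0.65 to 0.67 across 12619 genes. The part of GC in the small changes was not tested beyond a correction, which called 6728 genes with 49.0% of calls higher against 43.0%. It left the 53 interferon effectors and 17 MHC class I genes lower, with medians of -1.76 and -0.75.

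The persister change of the chemoresistant line was then set beside that of the parental line, which shares no library with it. Across the 13079 genes the log2 fold changes of the lines had a Spearman correlation of -0.22, a description over genes that share library preparation and scaling. Libraries 5 and 6 of the parental-DTP group stood apart from the other 4, so counts are also given without them. The difference between the lines was itself tested in all 24 libraries and passed for 8764 of 13729 genes (63.8%), 2812 in the positive direction (20.5%), meaning a more positive change in the chemoresistant line, and 5952 in the negative (43.4%). With relative log expression factors as scaling the median difference moved from -0.17 to -0.01 and the share of positive calls from 32.1% to 48.2%.

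All 53 interferon effectors passed this test in the negative direction, also without parental-DTP libraries 5 and 6, or 52 with that scaling, and their median change in the parental line was 0.07. OASL, IFIT2, TRIM22 and IFI6 had differences of -3.60, -3.35, -3.23 and -3.22, and IFI6 in the parental line lay at 2.32 ± 0.604 FPKM (SD, n = 6) without and 2.24 ± 2.24 FPKM (SD, n = 6) with the DTP label. MHC class II genes had 11 of 11 negative differences, and HLA-DRA had a mean of 86.9 FPKM in both parental groups. Of the 141 genes that fell at least 2-fold, all had a negative difference, a count that the choice of falling genes partly fixes. Their median log2 level over parental cells was 2.20 in chemoresistant and 0.71 in persister libraries, levels whose gap the same choice partly fixes.

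Some rises occurred in both lines. Of the 49 that rose at least 2-fold, 25 also rose in the parental line, 13 fell there and 11 did not pass. Of all 2590 genes that rose, 828 also rose in the parental line, 895 fell there and 867 did not pass. Of the 3436 genes that fell, 2094 rose in the parental line, 480 fell there and 862 did not pass. A rise in the parental line was therefore not particular to the genes that rose here. The median parental change over all these genes was 0.13, and the counts were not repeated with another scaling. AREG, GDF15, CXCL8 and LIF rose in both lines, further in the parental line by 0.38, 2.12, 1.56 and 0.98 on the log2 scale. Stress response targets had 35 of 40 negative differences (median parental change 1.34), ADM2 leading at -3.24. In the other direction stood protein folding, ribosome and mitosis genes. Positive differences held for 23 of 26 cytosolic heat shock proteins (median parental change -0.72) and 13 of 15 members of the chaperonin list. They also held for 19 of 25 ribosome biogenesis genes and 30 of 36 mitosis genes. In that order the counts were 23, 14, 21 and 33 with the other scaling. Without the parental-DTP libraries that stood apart they were 21, 13, 19 and 28. HSPA8, the constitutive HSP70, had the most positive difference, 3.69. It went from 89.0 to 107 FPKM (median 95.4) to 131 to 143 (median 136) in the chemoresistant line, and from 727 to 814 (median 799) to 76.7 to 96.9 (median 82.7) in the parental line.

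**Figure D5:**
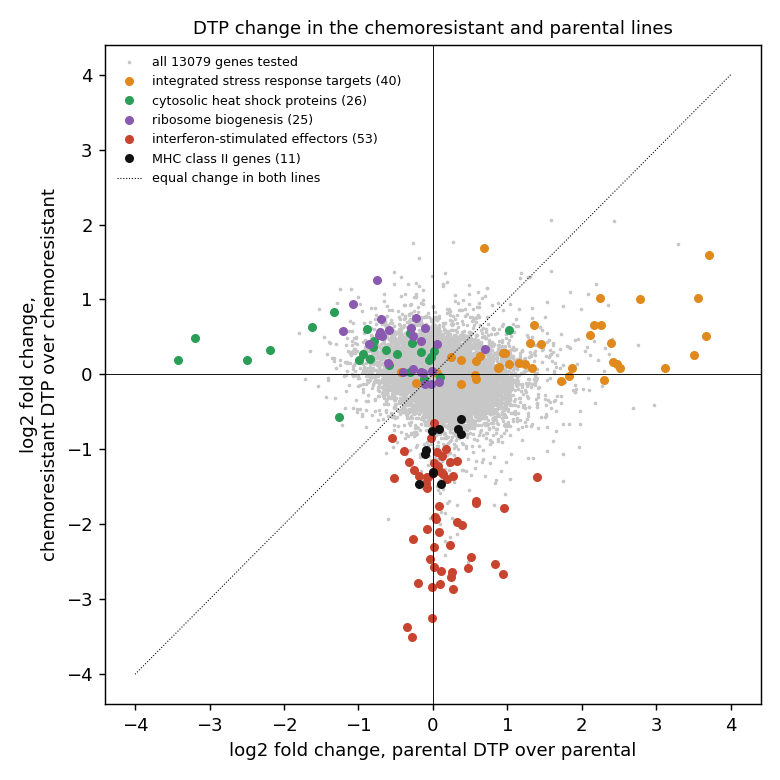
Log2 fold change of chemoresistant DTP over chemoresistant libraries against that of parental DTP over parental libraries for the 13079 genes (grey) and 5 lists in colour, with a dotted line of equal change. Interferon effectors (red) and MHC class II genes (black) lie below zero on the vertical axis and mostly near zero on the horizontal, stress response targets (orange) reach furthest right, and heat shock genes (green) lie mostly left of and above zero.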

How the data were processed

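RNA sequencing values of 24 KYSE450 libraries were used, 6 in each of 4 groups. The authors deposited 1 table of FPKM values per gene, per the file headers. The build was GRCh38, per the submitters' processing notes, while aligner, annotation and strandedness were not given in the sources used here. After 23 lines of spilled annotation text were left out, the table held 61251 genes, 646 of them unannotated loci. All 41101 genes above 0 came out as whole reads (tolerance 0.02 reads or a relative 5e-08), giving 20166509 to 29128757 reads in the 12 chemoresistant and chemoresistant-DTP libraries, at which 3 reads are 0.103 to 0.149 CPM, and 14947379 to 37989445 reads in the 12 parental and parental-DTP libraries, at which they are 0.079 to 0.201 CPM.

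The 12 chemoresistant and chemoresistant-DTP libraries were fitted with limma 3.58.1 in R 4.3.3 on log2(FPKM + 1), with a mean-variance trend, no covariate and Benjamini-Hochberg adjustment over 13079 genes. The difference between lines was fitted on 24 libraries and 13729 genes. The test was tried on simulated data first. Groups were taken from the phenotype label. Replicate numbers were not used as pairs. Named genes were those of the series title; the 20 largest rises and 20 largest falls without overlap and with at least 5 FPKM, and the 10 largest falls outside the interferon and antigen lists; up to 4 leading members and the regulators of each list; and the 5 largest differences each way. Members and gene lists were chosen with earlier results of these data known, and the lists of complement and MHC class II genes after their values were seen. Promoter sequences are from RefSeq (GRCh38.p14), and gene positions from GENCODE 29. Alternatives were another pseudocount, filter, scaling, GC correction, replicate block, all 24 libraries, voom on recovered reads, and leaving out each library. Some genes are not reported here.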

Additional observations from a re-analysis of the deposited data

Results flagged for a closer look

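In 8 of 110 tested groups of 6 libraries of the leading genes, 1 library lay far from the others, where chance gives about 1 in 20. Persister library 2 held 4 of these, with 5.80 FPKM for FDX1, 61.0 FPKM for AREG, 72.7 FPKM for KRT16 and 25.2 FPKM for MT1F, each the highest of its group. Persister library 1 held 3, the highest value of MX2 (1.07 FPKM) and of OAS2 (5.84 FPKM) and the lowest of HBEGF (22.1 FPKM). Chemoresistant library 5 held the lowest value of ADAMTS1, 1.44 FPKM.

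The persister change differed between the lines, by the test of the difference itself, for these named genes. It was more positive in the chemoresistant line for the HSP70 genes HSPA8 (3.69), HSPA1A (3.61) and HSPA1B (2.70), their partner DNAJA1 (2.51) and the FGF carrier FGFBP1 (2.40), in log2 units. HSPA1A and HSPA1B are near-identical, so their reads may have been split. The change was more negative in the chemoresistant line for OASL (-3.60), IFIT2 (-3.35), the adrenomedullin-related hormone ADM2 (-3.24), TRIM22 (-3.23) and IFI6 (-3.22).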

How the results depend on the processing

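No named gene past the threshold changed sign under an alternative, while medians of lists close to 0 did, such as that of the cytosolic ribosomal proteins without persister library 2 (-0.06 against 0.02). The count of genes past the threshold, 6026, was 5471 to 7381 when 1 library at a time was left out, the highest without persister library 2, with 2286 to 3452 higher, 3121 to 3929 lower, 46 to 56 at least 2-fold higher and 131 to 144 at least 2-fold lower. List members past the threshold, 986, ranged from 899 to 1206. The count of differences between lines ranged from 8531 to 9218, with 2733 to 3132 positive and 5783 to 6086 negative. At least 2-fold changes numbered 119 higher and 326 lower with a pseudocount of 0.1, and 125 and 366 with voom on recovered reads, an alternative chosen after seeing the data. A minimum of 5 FPKM gave 3490 genes past the threshold, 1633 of them lower, and 4877 differences, 2738 of them negative, from fewer genes tested. Without a filter 9290 differences were negative, from more genes tested, and with relative log expression factors 4252 were positive; the cause was not tested. The replicate block gave 5416 genes, and 8819 differences. Libraries with the same number correlated between -0.29 and 0.17 after the group means were taken out, and not every library correlated best with its own number, so the numbers were not used as pairs. The 2 planned count models were not run, because the values are FPKM. For TRIM22, a gene at a low level in the persisters, the log2 fold change was -4.65 with voom against -3.25 with a pseudocount of 1. Depth limits genes near 3 reads, which is at most 0.149 CPM in these 12 libraries.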

Other observations

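Over all genes tested 26.3% were lower and 19.8% higher. Among transcripts that code for no protein, antisense genes had 155 of 436 tested lower and 33 higher (median -0.13). Unannotated loci had 140 of 401 lower and 67 higher (median -0.16). Processed pseudogenes had 75 of 522 higher and 54 lower (median 0.02), both below the shares over all genes. Without known strandedness, reads of an antisense gene and its partner cannot be told apart.

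Genes of the BCL2 family, which set the threshold of apoptosis, had 7 of 16 tested lower and 2 higher, and 9 lower without persister library 2. Spliceosome and RNA-binding factors had 13 of 29 higher and none lower. Glucocorticoid response genes had 7 of 13 higher and 2 lower. Solute carriers were divided, with 59 of 175 lower and 34 higher, beside 26.3% lower and 19.8% higher over all genes tested. Genes of cuproptosis and lipoylation, the modification that the copper-triggered death form depends on, had 4 of 14 higher and none lower, and 7 higher without persister library 2. Nuclear-encoded respiratory chain genes had 12 of 76 higher and 1 lower (median 0.05), against 14 higher and 21 lower without that library (median -0.04).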
